A study of Homo sapiens with 6 samples.

Results

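The epidermal kallikrein proteases were examined in COV434 cells with and without reexpressed BRG1. They are 10 neighbouring genes, KLK5 to KLK14, which were taken by gene symbol from the deposited table, and all 10 were found among its 19899 genes. COV434 is an ovarian cell line, classed by the study as SCCOHT, a small cell carcinoma of the ovary of the hypercalcemic type in which BRG1 protein is missing. BRG1, the product of SMARCA4, is the motor subunit of SWI/SNF, a complex that moves nucleosomes. Control cells were COV434 parental cells given pCDNA3-neo, and BRG1 cells were the same parental cells given PBJ5-BRG1. Both groups also received the pBABE-puro plasmid, were put on 2 to 3 µg/ml puromycin after 24 hours and were collected after 3 days of selection, with 3 biological replicates each. The expression was transient, came from a plasmid and was examined in 1 cell line. RNA was pooled over all cells of a culture, so that fewer expressing cells and less RNA per cell cannot be told apart.

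Tissue kallikreins are secreted serine proteases that are made as inactive proforms and are switched on by removal of a short propeptide. In the outer epidermis KLK5, KLK7 and KLK14 are known for cutting the corneodesmosomes that hold dead cells together, and KLK5 can activate itself and other kallikreins. LEKTI, the product of SPINK5, inhibits several of them, and protease-activated receptors on the cell surface are among their substrates. Several kallikreins have also been followed as markers of ovarian carcinoma.

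The libraries held between 29699741 and 63613710 estimated counts, and BRG1 sample 3 was the shallowest. SMARCA4, the transfected gene, had between 1439 and 1676 normalised counts in Control and between 78589 and 108655 in BRG1 samples, with plasmid transcripts included, and BRG1 sample 1 was the highest. A normalised count is an estimated count divided by the size factor of its sample. Markers of other cell types were read because kallikreins are made by keratinocytes. Of 6 keratinocyte markers 4 were called higher (KRT5, KRT14, KRT15 and COL17A1), and the summed level of all 6 was 268.8 to 300.9 in Control and 894 to 3513 in BRG1 samples. DSG3, a desmosomal cadherin, made up most of the Control sum and lay lower with BRG1, at 263, 249 and 219.6 normalised counts in Control and 111, 179 and 187 in BRG1 samples, but was not called (DESeq2 adjusted p 0.143). TP63, the master regulator of stratified epithelium, was at or under 10.6 normalised counts in every sample and was not called. Of 5 granulosa markers 1 was called (CYP19A1, higher), with summed levels of 291 to 470.2 in Control and 638 to 921 in BRG1 samples, and FOXL2 was at 0 in 5 of the 6 samples and at 1.22 in the other. Of 4 endothelial markers 2 were called higher (VWF and CDH5), with sums of 1319 to 2182 in Control and 5328 to 5999 in BRG1 samples. Of 4 leukocyte markers 0 were called, with sums of 344 to 676 in Control and 365 to 736 in BRG1 samples. The part of these genes in the kallikrein result was not tested.

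BRG1 reexpression raised 5 of the 10 kallikrein genes. KLK5, KLK6, KLK7, KLK8 and KLK14 were called higher by DESeq2, at a Benjamini-Hochberg adjusted p under 0.05 over all genes tested, and 0 were called lower (0 also at an unadjusted p under 0.05). Over all 16002 genes with an adjusted p, 11.0% were called higher and 1.84% lower. KLK10 and KLK13 were tested and not called, KLK11 had a single count in a single Control sample, and KLK9 and KLK12 had no count in any sample. The same 5 genes were called by edgeR, which called 9.57% of its 14246 genes higher and 1.02% lower, with 0 kallikreins lower. They were also called with the replicate number as a block, where 13.4% of 15653 genes were higher and 6.61% lower. In 7 of the 10 genes every BRG1 sample lay above every Control sample, as did 16.7% of the 16002 genes. Over the 7 genes with an adjusted p the median log2 fold change was 3.92, beside -0.01 over all genes tested. For this median KLK13 was set against a floor of 3 counts over the Control group. Genes at 0 in Control can only be tested through their BRG1 counts. KLK5, KLK6, KLK7, KLK8 and KLK14 held 23, 5, 4, 16 and 19 Control counts in all. They passed edgeR's filter on low counts only through the BRG1 samples, where they are high. The median over the tested genes is therefore a description. The plot of the 10 genes by sample shows the levels.

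**Figure D1:**
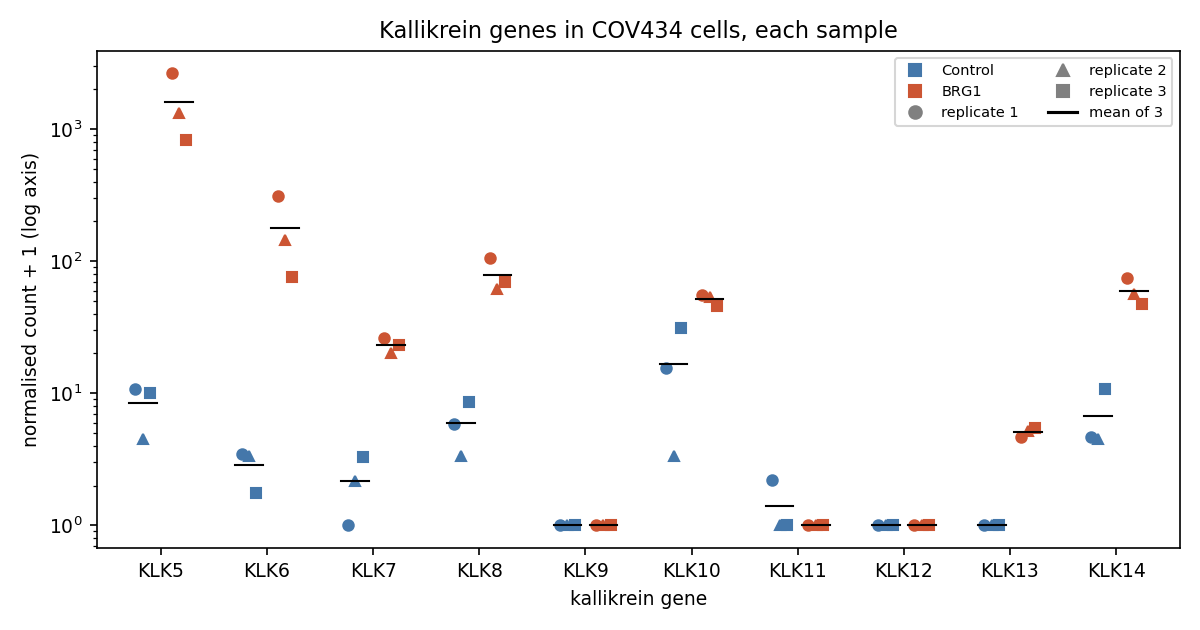
Normalised count plus 1, on a log axis, of the 10 kallikrein genes in each of the 3 Control (blue) and 3 BRG1 (red) samples, with a black line at the mean of 3. KLK5 reached 829.9 to 2649.8 in BRG1 samples against 3.52 to 9.75 in Control, whereas KLK9 and KLK12 lay at 0 in every sample.

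KLK5 made up most of the kallikrein counts after BRG1 reexpression. KLK5 encodes a trypsin-like protease regarded as an initiator of the epidermal kallikrein cascade. It had 9.75, 3.52 and 9.09 normalised counts in Control samples 1 to 3 and 2649.8, 1337 and 829.9 in BRG1 samples 1 to 3. Every BRG1 sample lay above every Control sample, BRG1 sample 1 was the highest and BRG1 sample 3 the lowest. On average it went from 7.45 ± 3.42 to 1606 ± 939 (SD, n = 3). The log2 fold change of BRG1 over Control (LFC) was 7.73 (SE 0.52), at a DESeq2 adjusted p of 2.1e-47 and an edgeR adjusted p of 0.000188. Pairs of the same replicate number differed 272-fold, 380.2-fold and 91.3-fold. The gene took 15.2% to 26.7% of the summed kallikrein counts in Control samples and 76.1% to 82.2% in BRG1 samples.

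KLK6, which encodes a trypsin-like protease best known from the nervous system, was the other gene with a change above 6 on the log2 scale. It had 2.44, 2.35 and 0.757 normalised counts in Control samples and 313, 144 and 74.6 in BRG1 samples. The order of the BRG1 samples was that of KLK5. LFC was 6.69 (SE 0.86), at a DESeq2 adjusted p of 2.3e-13 and an edgeR adjusted p of 0.00119. Control held 5 counts in all against 654 in BRG1 samples, which gave a pooled ratio of 120.4 with an exact 95% interval of 51.3 to 372 for counting error only.

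KLK7 encodes the chymotrypsin-like enzyme first found in the stratum corneum. It had 0, 1.17 and 2.27 normalised counts in Control samples and 25.4, 19.1 and 22.4 in BRG1 samples. The BRG1 samples lay close together and above every Control sample. LFC was 4.13 (SE 1.03), at a DESeq2 adjusted p of 0.000746 and an edgeR adjusted p of 0.00600. Control held 4 counts in all, and the pooled ratio of 16.8 had an exact 95% interval of 6.29 to 63.3 for counting error only. Without Control replicate 3, which held 3 of those 4 counts, LFC was 5.22, and without Control replicate 1 it was 3.63.

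KLK14, another trypsin-like protease of the epidermis, had 3.65, 3.52 and 9.84 normalised counts in Control samples and 73.3, 55.7 and 46.3 in BRG1 samples. The groups did not overlap. LFC was 3.29 (SE 0.61), at a DESeq2 adjusted p of 1.3e-06 and an edgeR adjusted p of 0.00427. Without Control replicate 3 LFC was 4.03.

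KLK8, also called neuropsin and made in both brain and skin, had 4.87, 2.35 and 7.57 normalised counts in Control samples and 104, 60.6 and 68.7 in BRG1 samples. The groups again stood apart, and BRG1 sample 1 was the highest. LFC was 3.92 (SE 0.59), at a DESeq2 adjusted p of 1.1e-09 and an edgeR adjusted p of 0.00175. Exons of KLK9 and of a readthrough gene cover 40.1% of the exonic bases of KLK8, and how reads were shared out among them is uncertain.

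KLK10 and KLK13 did not pass the test, and KLK11 had too few counts for an adjusted p. KLK10, whose product is studied as a candidate tumor suppressor, had 14.6, 2.35 and 30.3 normalised counts in Control samples and 54.4, 52.3 and 44.8 in BRG1 samples. Every BRG1 sample lay above every Control sample, but the Control samples differed widely among themselves. LFC was 1.65 with a 95% interval of 0.21 to 3.10 and a DESeq2 adjusted p of 0.143, and the edgeR adjusted p was 0.218. Without Control replicate 3 it was called higher (LFC 2.58, DESeq2 adjusted p 0.00987), and with the replicate block the DESeq2 adjusted p was 0.0506. KLK13 had no count in Control and 3.63, 4.15 and 4.48 normalised counts in BRG1 samples, from 13 counts in all. Its BRG1 level was 3.99-fold a floor of 3 counts over the Control group. The pooled ratio had an exact 95% lower limit of 2.81 for counting error only, and the DESeq2 adjusted p was 0.197. KLK11 had 1.22 normalised counts in Control sample 1 and 0 in the other samples.

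KLK9 and KLK12 were not detected. A count of 0 allows a level of up to 0.0214 CPM (counts scaled to a common library size) in Control and 0.0203 CPM in BRG1 samples, for counting error only. Of the exonic bases of KLK9, 96.3% lie under other genes, mostly the readthrough gene that also spans KLK8. Reads from KLK9 and from that gene can hardly be told apart. Antisense genes overlap the exons of 4 of the 10 genes, over 20.5% of the exonic bases of KLK6, 12.2% of KLK5, 9.04% of KLK12 and 6.32% of KLK10, and the unstranded reads there cannot be told apart.

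**Figure D2:**
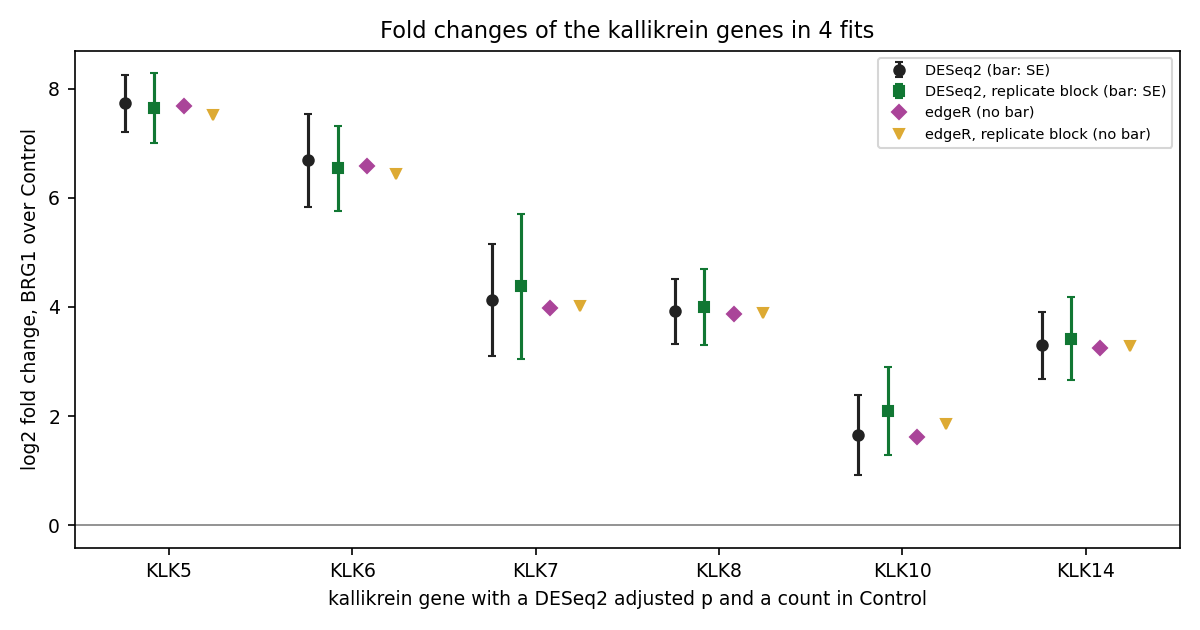
Log2 fold change of BRG1 over Control for the 6 kallikrein genes with a DESeq2 adjusted p and a count in Control, in 4 fits (DESeq2 and edgeR, each with and without the replicate block), with bars of 1 standard error for DESeq2. The DESeq2 values ran from 1.65 for KLK10 to 7.73 for KLK5.

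In each of 14 other settings KLK5, KLK6, KLK7, KLK8 and KLK14 kept their higher call. The lowest LFCs were 7.16 for KLK5 and 6.00 for KLK6, both without BRG1 replicate 1, and 3.63 for KLK7, 3.61 for KLK8 and 3.05 for KLK14. The highest were 8.04 for KLK5 and 7.07 for KLK6, both without BRG1 replicate 3, and 5.22, 4.44 and 4.03 for KLK7, KLK8 and KLK14, all without Control replicate 3. The plot of fold changes in 4 fits shows that the choice of test moved these values by less than 1 standard error of DESeq2.

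The genes differed in how far the BRG1 samples spread. For KLK5 and KLK6 the level in BRG1 sample 1 was 3.19-fold and 4.19-fold that of sample 3, and the SD was 58.5% and 69.2% of the mean. For KLK7, KLK8, KLK10 and KLK14 the ratio of sample 1 to sample 3 was between 1.13 and 1.58, and the SD was between 10.03% and 29.9% of the mean. SMARCA4 itself was 1.38-fold higher in BRG1 sample 1 than in sample 3, and had 79075 and 78589 normalised counts in BRG1 samples 2 and 3. In those samples KLK5 had 1337 and 829.9, and KLK6 had 144 and 74.6. A link to the SMARCA4 level was not tested. The summed normalised counts of the 10 genes were 36.5, 15.2 and 59.8 in Control samples and 3224, 1673 and 1091 in BRG1 samples, so that the lowest BRG1 sample was 18.2-fold above the highest Control sample.

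Levels of different genes were compared per kilobase of the canonical mRNA. In BRG1 samples KLK5 stood highest with 1061 ± 621 normalised counts per kilobase (SD, n = 3), and its lowest sample was above every sample of KLK6. KLK6 followed with 124 ± 85.7, KLK8 with 85.2 ± 25.5 and KLK14 with 55.4 ± 13. The samples of KLK6 overlapped those of KLK8, and those of KLK8 overlapped those of KLK14, so that the order of these neighbours is not set. KLK10 (16.9 ± 1.70), KLK7 (11.4 ± 1.61) and KLK13 (2.25 ± 0.24) came after them, each apart from the next. In Control samples the means of KLK8, KLK14, KLK10 and KLK5 lay between 4.92 and 5.39 normalised counts per kilobase and their samples overlapped, and KLK6 had 1.29 ± 0.66. KLK10 was among these 4 in Control and came after KLK5, KLK6, KLK8 and KLK14 in BRG1 samples.

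The genes moved together over the 6 samples. Among the 6 genes KLK5, KLK6, KLK7, KLK8, KLK13 and KLK14, the 15 pairs had a Pearson r of log2(normalised count + 1) between 0.92 and 0.99, and the 6 pairs with KLK10 had an r between 0.68 and 0.86. These are descriptions, since all pairs share the same 6 libraries and the difference between the groups. Of 12431 other genes with a mean of at least 50 normalised counts, C4B, RASGRF1, FRAS1, MYL4 and CCK were most like the summed kallikreins, with r between 0.9978 and 0.9986. C4B has a near-identical copy, and its value is uncertain for that reason.

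The 10 genes lie side by side on chromosome 19 from 50943303 to 51084245 of GRCh38 (GENCODE release 44), a stretch of 141 kb, and all 10 are on the minus strand. KLK5 (50943303 to 50953093), KLK6 (50958631 to 50969673), KLK7 (50976468 to 50984099) and KLK8 (50996007 to 51002711) are neighbours, while KLK14 (51077495 to 51084245) lies at the far end, with KLK9, KLK10, KLK11, KLK12 and KLK13, which were not called, between it and KLK8. The 5 remaining genes of the kallikrein cluster, which extends to KLK1 on the other side, were read as a comparison. Of KLK1, KLK2, KLK3, KLK4 and KLK15, 0 were called by DESeq2 in either direction (0 also by edgeR and 0 at an unadjusted p under 0.05), and 4 had too few counts for an adjusted p. Only KLK2 was tested, so the count of 0 says little beside the 11.0% called higher and 1.84% lower over all genes tested. KLK2, which is known from the prostate, had 70.7, 70.4 and 102 normalised counts in Control samples and 51.5, 49.0 and 142 in BRG1 samples. Its LFC was -0.03 with a 95% interval of -1.0 to 0.94 and a DESeq2 adjusted p of 0.989. KLK1, KLK3, KLK4 and KLK15 did not exceed 3.63 normalised counts in any sample.

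Genes just outside the cluster were compared in the same way. Of the 5 nearest protein-coding genes on each side, 0 of 10 were called higher and 0 lower by DESeq2 (1, CD33, at an unadjusted p under 0.05), 5 had an adjusted p, and edgeR called 0 of the 4 it tested. Over all genes tested DESeq2 called 11.0% higher and 1.84% lower. With 5 genes tested, 0 calls therefore do not show where the rise ends. SHANK1, a scaffold protein of synapses, had an LFC of -0.22, and CTU1, a tRNA modification gene next to KLK14, had one of 0.16 with a 95% interval of -0.40 to 0.71. C19orf81 had an LFC of -0.04. CLEC11A, a secreted growth factor gene, averaged 4159 ± 1086 without and 3195 ± 1205 with BRG1 (normalised counts, SD, n = 3), with an LFC of -0.38 that was not called by DESeq2 (adjusted p 0.607) but was called lower with the replicate block (LFC -0.42, DESeq2 adjusted p 0.00384). CD33, a sialic acid binding receptor of myeloid cells, had 1.22, 0 and 0 normalised counts in Control samples and 7.25, 6.65 and 7.46 in BRG1 samples. It had an unadjusted p of 0.0108 and was not called (DESeq2 adjusted p 0.0761). C19orf48, listed as a pseudogene in the RefSeq table, is not among these 10, which were picked by the GENCODE annotation. It was looked at after its values were seen. It had 8663, 9502 and 7181 normalised counts in Control samples and 6249.8, 6463 and 6804.5 in BRG1 samples, every BRG1 sample below Control. Its LFC of -0.38 was not called (unadjusted p 0.0157, DESeq2 adjusted p 0.102). With the replicate block C19orf48 was called lower by DESeq2 (adjusted p 0.0190) but not by edgeR (adjusted p 0.0586). GPR32, ACPT, SIGLEC9, SIGLEC7 and SIGLECL1 were at or under 2.18 normalised counts in every sample.

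**Figure D3:**
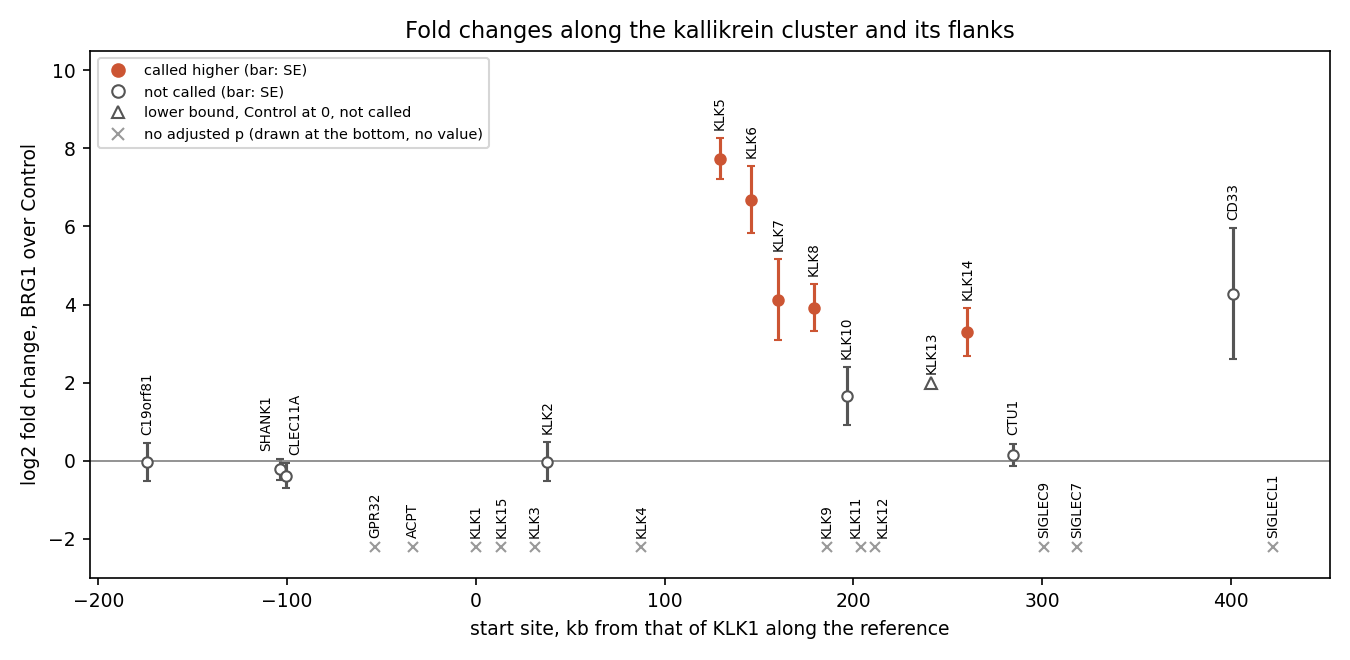
Log2 fold change of BRG1 over Control against the distance of each gene's start site from that of KLK1, for the 15 kallikrein genes and 10 flanking genes, with bars of 1 standard error. The 5 genes called higher (filled) all lie between 129 and 260.5 kb. The triangle is KLK13 set against a floor of 3 counts over the Control group, and does not include the counting error of its BRG1 counts. Crosses at the bottom are genes without an adjusted p and carry no value.

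Promoters of 4 of the 5 raised genes are shown because these genes changed together and belong to 1 gene cluster. They are the 250 bases before the start of 1 RefSeq transcript each (GRCh38.p14, minus strand, written 5′ to 3′), at chr19:50953039-50953288 for KLK5, chr19:50969592-50969841 for KLK6, chr19:50983918-50984167 for KLK7 and chr19:51082857-51083106 for KLK14. Capitals mark TATAA in the 50 bases before the start and the GC box GGGCGG on either strand.
KLK5: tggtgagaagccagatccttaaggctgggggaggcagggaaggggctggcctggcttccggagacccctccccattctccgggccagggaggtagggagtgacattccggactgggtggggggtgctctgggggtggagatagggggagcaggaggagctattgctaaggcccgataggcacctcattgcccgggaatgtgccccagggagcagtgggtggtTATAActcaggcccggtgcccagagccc
KLK6: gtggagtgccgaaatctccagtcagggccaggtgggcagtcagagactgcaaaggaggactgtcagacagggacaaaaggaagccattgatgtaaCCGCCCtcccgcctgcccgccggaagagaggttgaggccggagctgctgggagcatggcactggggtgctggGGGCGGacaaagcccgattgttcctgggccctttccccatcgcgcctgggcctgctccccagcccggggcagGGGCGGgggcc
KLK7: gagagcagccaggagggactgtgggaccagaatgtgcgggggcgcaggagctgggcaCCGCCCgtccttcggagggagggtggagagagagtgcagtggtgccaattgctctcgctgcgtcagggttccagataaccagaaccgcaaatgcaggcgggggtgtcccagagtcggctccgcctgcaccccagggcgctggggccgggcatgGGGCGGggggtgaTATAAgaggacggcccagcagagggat
KLK14: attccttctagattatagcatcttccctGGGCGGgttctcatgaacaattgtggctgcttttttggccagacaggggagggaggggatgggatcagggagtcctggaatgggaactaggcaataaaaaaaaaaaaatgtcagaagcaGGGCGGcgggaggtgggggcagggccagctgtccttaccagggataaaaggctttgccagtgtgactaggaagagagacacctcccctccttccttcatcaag
KLK8 had no promoter entry. KLK7 and KLK14 had 3 promoter entries each, of which 1 is shown. The KLK14 stretch shown lies inside the GENCODE gene, whose end at 51084245 was the start site used for distances. KLK5 and KLK7 hold TATAA at 28 and 27 bases before the start, KLK6, KLK7 and KLK14 hold GC boxes, and KLK5 holds none.

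Of the 10 genes, 9 matched a RefSeq promoter, with 16 entries in all. The AP-1 motif TGANTCA, searched because the study links BRG1 to AP-1, was in 0 of the 16 entries and in 6.57% of all 35116 promoters. The interferon-stimulated response element was in 0 of the 16 entries and in 3.02% of all promoters, and the TATA motif TATAAA was in 0 and in 10.7%. Both strands were searched. With 16 entries from 9 genes, some of them alternative starts of the same gene, counts of 0 say little beside these shares. The study's own promoter search used another window and other motif models. TATAA within 50 bases before the start, on the strand of the gene, was in 2 of the 16 entries and in 4.74% of all promoters, and the GC box was in 10 of the 16 and in 42.6%. TATAA and the GC box were chosen after the sequences were seen. The window ends at the start site and says nothing of distant sites.

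Genes that act with the kallikreins were examined from a list of 20. By DESeq2 5 were called higher (SERPINA5, SPINT2, F2RL1, F2R and FLG) and 1 lower (A2M), and edgeR made the same 6 calls. A further 7 had an adjusted p and were not called, and 7 had none. The median LFC of the 13 with an adjusted p was 0.50. Over all genes tested DESeq2 called 11.0% higher and 1.84% lower. The list was chosen with earlier results of these data known, so its counts of calls are a description.

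Both protease-activated receptors of the list rose. F2RL1 encodes PAR2, a receptor that trypsin-like kallikreins can cleave. It had 34.1, 51.6 and 9.09 normalised counts in Control samples and 1214, 1040.0 and 364 in BRG1 samples, without overlap. LFC was 4.81 (SE 0.57, DESeq2 adjusted p 2.4e-15). F2R, which encodes the thrombin receptor PAR1, rose from 189 ± 40.0 to 1180 ± 476 normalised counts (SD, n = 3), with an LFC of 2.64 (DESeq2 adjusted p 3.6e-13).

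The inhibitors did not move in a single direction. SPINK5, which encodes LEKTI, had 328, 359 and 472 normalised counts in Control samples and 187, 245 and 448 in BRG1 samples. The groups overlapped, with an LFC of -0.40 (95% interval -1.09 to 0.28, DESeq2 adjusted p 0.624), and without BRG1 replicate 3 it was called lower (LFC -0.84, DESeq2 adjusted p 0.0164). SERPINA5, the protein C inhibitor, which can block several kallikreins, rose from 7.02 ± 2.26 to 2014 ± 429 normalised counts (SD, n = 3), with an LFC of 8.17 (DESeq2 adjusted p 5.7e-93). A2M, the general protease trap alpha-2-macroglobulin, stood at 46475, 39307 and 24839 in the Control samples and at 19617, 20419 and 17166 normalised counts in the BRG1 samples. It fell by 0.95 on the log2 scale (DESeq2 adjusted p 0.00130) without overlap.

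A2ML1, the epidermal relative of A2M, had 68.2, 110.2 and 120.4 normalised counts in Control samples and 19.6, 34.1 and 77.6 in BRG1 samples, with an LFC of -1.22 that was not called (DESeq2 adjusted p 0.143). It was called lower with the replicate block (LFC -1.36, DESeq2 adjusted p 0.0238) and without BRG1 replicate 3 (LFC -1.90, DESeq2 adjusted p 0.000747). SERPINA12, or vaspin, which inhibits KLK7, was at 0 in Control and at 3.63, 8.31 and 5.97 normalised counts in BRG1 samples, at least 5.83-fold higher against 3 counts over the Control group, and was not called (DESeq2 adjusted p 0.0709). SPINK6 had at most 3.03 normalised counts in any sample, and SPINK9 had none (0 counts).

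Among the proteases that can act upstream, ST14 (matriptase) had 0, 1.17 and 5.30 normalised counts in Control samples and 0.725, 1.66 and 4.48 in BRG1 samples. PRSS8 (prostasin) and the meprins MEP1A and MEP1B were also low, at or under 8.31 normalised counts in every sample, and 0 of these 4 genes were called by DESeq2 (0 at an unadjusted p under 0.05, and 0 had enough counts for the edgeR test). SPINT2, an inhibitor of matriptase, rose from 7081 ± 853 to 10902 ± 1005 normalised counts (SD, n = 3), with an LFC of 0.62 (DESeq2 adjusted p 0.00111), and SPINT1 had at most 4.48 normalised counts.

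The substrates of the list differed. FLG encodes filaggrin, which is processed as keratinocytes cornify. It had 169, 83.3 and 113 normalised counts in Control samples and 18816, 11907 and 9090 in BRG1 samples, with an LFC of 6.77 (SE 0.34, DESeq2 adjusted p 7.2e-88). An antisense gene spans FLG in the annotation. The overlap of their exons was not measured, and unstranded reads over any shared exon cannot be told apart. The desmosomal cadherins DSG1 and DSC1, which corneodesmosomes contain, were already abundant in Control, with 21134 ± 3010 and 29101 ± 2421 normalised counts (SD, n = 3). Their LFCs of -0.28 and -0.29 were not called (DESeq2 adjusted p 0.391 and 0.247). The groups overlapped for DSG1. For DSC1 every BRG1 sample (21021, 26182 and 24137 normalised counts) lay below every Control sample (31699, 28697 and 26907). CDSN, which encodes corneodesmosin, had 5.08 normalised counts in BRG1 sample 1 and 0 elsewhere, and CAMP, which encodes the antimicrobial precursor cut by KLK5 and KLK7, had at most 1.49.

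**Figure D4:**
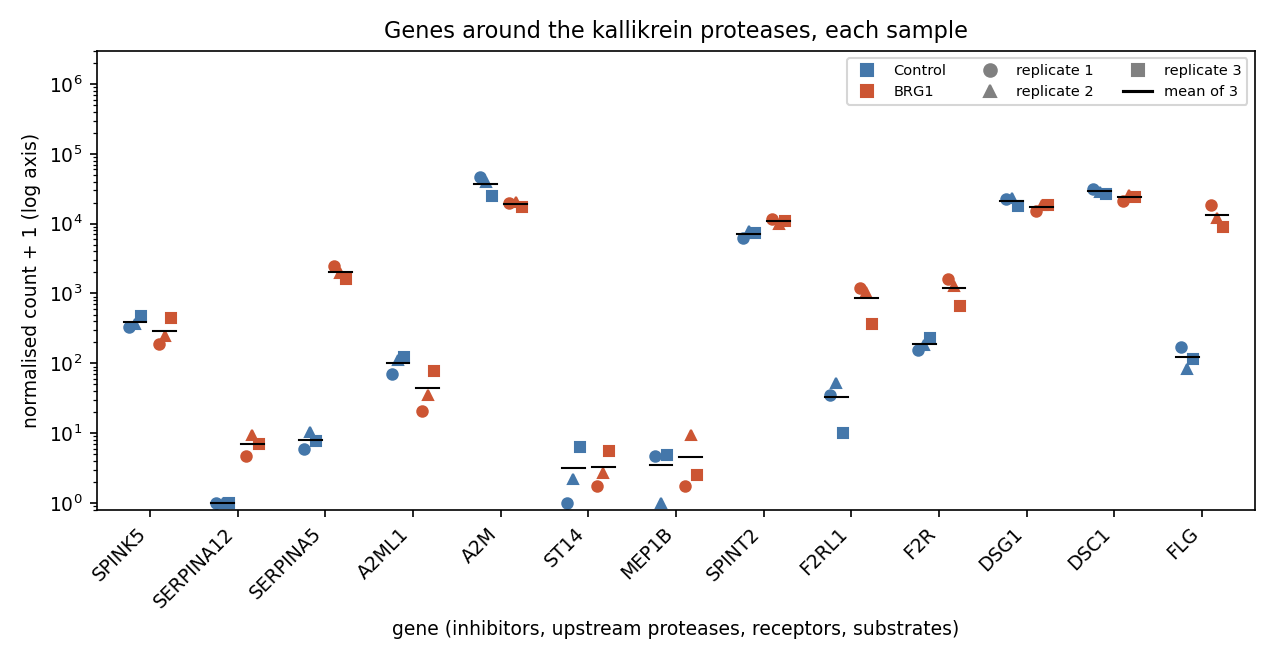
Normalised count plus 1, on a log axis, of the 13 genes of the list with an adjusted p in each of the 3 Control (blue) and 3 BRG1 (red) samples, with a black line at the mean of 3. F2RL1, F2R, SERPINA5, SPINT2 and FLG lie higher with BRG1 in all samples and A2M lower. SERPINA12 also lies higher and DSC1 lower in all samples without being called, while SPINK5, A2ML1, DSG1, ST14 and MEP1B overlap.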

How the data were processed

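RNA-seq of 3 Control and 3 BRG1 samples was analysed. Per the labels, libraries from 500 ng of RNA were unstranded and were read as pairs of 78 bases, so antisense transcripts over shared exons add to a gene. The authors aligned reads with STAR (version 2.5.3a), quantified transcripts with salmon (version 0.8.2) and summed them per gene symbol with tximport. These deposited estimated counts were made from TPM scaled by transcript length and library size, not divided by library size, and reads that fit several genes were shared out by salmon's model.

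The estimated counts were rounded, and DESeq2 (version 1.42.0, R 4.3.3) tested BRG1 against Control over all 19899 genes, of which 18096 had a count, with median-ratio size factors, independent filtering, no covariate and a Benjamini-Hochberg adjusted p under 0.05. DESeq2 is the tool of the study's methods. In counts simulated with known changes the share of false calls was 25.8% with DESeq2 and 5.17% with edgeR, both above the threshold. With the replicate block it was 28.1% with DESeq2 and 7.51% with edgeR. For this reason edgeR's quasi-likelihood test (version 4.0.16, TMM factors, low counts filtered) is set beside DESeq2. The simulation changed few genes and gave 244 DESeq2 calls, whereas these data gave 1764 higher and 294 lower. The share of false calls depends on how many genes change, so the simulated shares are not those of these data. Intervals of pooled ratios cover counting error only, and the floor of 3 counts covers only that of a group at 0. The 95% intervals of log2 fold changes come from the DESeq2 standard error and include the spread between replicates. The replicate numbers pair the samples: deviations from the group means correlated at 0.34, 0.30 and 0.46 within numbers 1, 2 and 3 over 14225 genes. The pairing is inferred from the data. Other settings were TMM size factors, at least 10 counts in at least 3 samples, no independent filtering, an adjusted p under 0.01, the replicate block and leaving out each sample. Genes named were the 10 kallikreins, SMARCA4, the 5 other cluster genes, 10 flanking genes, 20 genes acting with kallikreins, markers and the 5 genes most like the summed kallikreins. Members and lists were chosen with earlier results of these data known. Per-length levels used canonical mRNA lengths of GENCODE release 44, and the authors used an earlier release, both on GRCh38.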

Additional observations from a re-analysis of the deposited data

How the results depend on the processing

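The count of kallikrein genes called higher was 5 in every planned setting other than leaving out Control replicate 3, which gave 6 by adding KLK10, and the count called lower was 0 in all of them. It was 5 to 6 in fits leaving out 1 replicate, and the number with an adjusted p ran from 6 to 7. The other cluster genes and the flanking genes called higher stayed at 0, and the genes acting with kallikreins called higher stayed at 5. SMARCA4 stayed higher throughout, with a log2 fold change of 5.67 to 5.92 when a replicate was left out. With the replicate block DESeq2 called 5 kallikrein genes higher and 0 lower. It changed the calls of CLEC11A, C19orf48 and A2ML1 given above and no other call among the genes named. TMM size factors moved the median log2 fold change of all genes from -0.01 to -0.03.

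Over all genes, those called lower (294) were 146 by edgeR, 1035 under the replicate block in DESeq2, 809 under the same block in edgeR, 130 at an adjusted p under 0.01 and 149 with edgeR without the filter on low counts, a setting chosen after seeing the data. Leaving out 1 replicate gave 116 at the fewest (BRG1 replicate 2 dropped) and 596 at the most (BRG1 replicate 3 dropped). The cause was not tested. Control libraries held between 0 and 54 counts in all per kallikrein gene, so their folds rest on few reads.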
